A study of Mus musculus with 8 samples.

Results

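The genes of purine and pyrimidine nucleotide synthesis were examined in mouse bone marrow-derived macrophages (BMDMs), phagocytes differentiated from marrow cells in a dish, kept with or without serine and glycine. The set was fixed by name as 35 genes, and all 35 were among the 17492 genes of the deposited table and passed the filter on low counts. It holds 13 genes of de novo purine synthesis, 4 of purine salvage, 8 of de novo pyrimidine synthesis and of the nucleotide kinases behind it, 2 of pyrimidine salvage and 8 of deoxynucleotide synthesis. RNA sequencing covered 8 libraries from cells of C57BL/6 mice: 4 from normal medium, labelled untreated, and 4 from the same kind of medium lacking serine and glycine, labelled serine deficiency. The labels give no time of withdrawal, age, sex or stimulation, and do not say whether the libraries come from separate animals or cultures. The spread behind each p-value is that between these 4 and 4 libraries, and it may be technical.

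Cells build purines on an activated ribose phosphate, adding atoms in a long series of steps that ends in inosine monophosphate (IMP), from which AMP and GMP branch. Glycine enters the purine ring whole, and formyl groups carried by folate, which serine and glycine feed, supply further ring carbons. Pyrimidines are made as a ring first and joined to ribose afterwards, without glycine or formyl groups, but the methyl group of thymidylate again comes from a folate. Salvage enzymes rebuild nucleotides from free bases and nucleosides, and macrophages meet such bases when they digest other cells.

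The libraries held 17565291 to 18201599 estimated counts, and the leading principal component of log2 CPM (44.9% of variance) set the groups apart. CPM is a gene's count in each 1e+06 counts, after TMM scaling of library sizes. The common coefficient of variation within groups was 2.78%, and no library pair of a group looked like a repeat deposit, since chi-square per degree of freedom ran from 1.42 to 3.60 over 12 pairs. All 8 macrophage markers were present, from 121 CPM for Fcgr1 to 9988 CPM for Lyz2 in the serine/glycine-free group. In the fit described below 4 of them rose and 4 fell, beside 15.9% higher and 17.3% lower of all genes tested. Their log2 changes ran from -0.61 for Itgam to 0.41 for Csf1r, so the levels of these markers were not constant. Of markers of other cells, the neutrophil and progenitor list summed to 1.07 to 1.51 CPM in control and 2.11 to 2.74 CPM in serine/glycine-free libraries. At most 3 counts in any library were seen for 6 of its 9 genes found in the table, 3 of 7 of the lymphocyte list, 1 of 5 of the dendritic cell list, 1 of 7 of the stroma and endothelium list, and 5 of 6 of the erythroid, megakaryocyte and mast cell list. The lymphocyte list summed to 43.4 to 51.1 CPM in control and 32.2 to 38.9 CPM in serine/glycine-free libraries, nearly all of it Cd79b, and the stroma and endothelium list to 65.1 to 73.8 and 52.8 to 57.2 CPM, nearly all of it Pecam1. The dendritic cell list summed to 1.16 to 1.81 and 1.11 to 1.83 CPM, and the erythroid, megakaryocyte and mast cell list to 0.0562 to 0.448 and 0.286 to 0.501 CPM. The part of other cells in the results below was not tested.

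Without serine and glycine the nucleotide synthesis genes moved little and in both directions. Of the 35 genes, 6 rose, 7 fell and 22 did not pass an adjusted p of 0.05 (edgeR quasi-likelihood test, Benjamini-Hochberg over 11700 genes). Across all genes tested 15.9% were called higher and 17.3% lower, against 17.1% and 20% of these 35, so the share called was near the background (33.2% in either direction). Adssl1, Tyms, Ctps2, Aprt, Umps and Adss were higher, and Pfas, Dck, Impdh1, Uck2, Atic, Impdh2 and Hprt were lower. The median fold among the 13 called genes was 1.12 in either direction, and none reached 1.5-fold. The median log2 change of all 35 was -0.019, beside 0.0074 for all genes tested. The groups did not overlap for 7 genes that were higher and 5 that were lower, where 14.5% and 16.2% of all genes tested were likewise apart (30.7% in either direction). The precision was close: standard errors of the log2 change lay between 0.026 and 0.081, and estimated counts between 169 and 6193 per library. In bulk RNA, fewer cells of a type and less RNA per cell cannot be told apart.

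**Figure D1:**
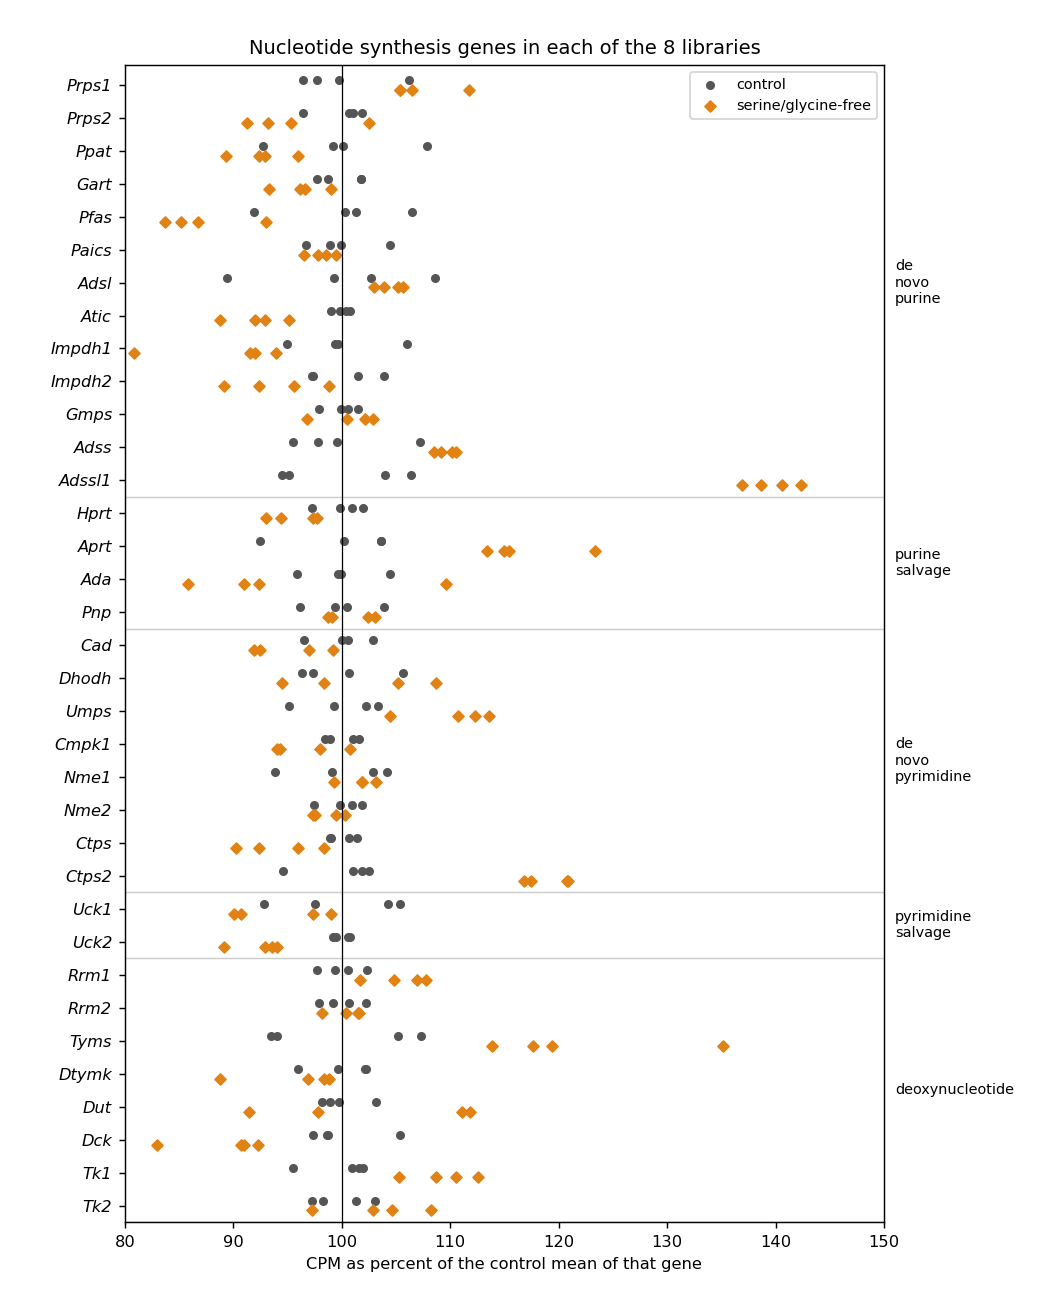
Each gene's CPM in every library as a percent of that gene's control mean, with control libraries as circles and serine/glycine-free libraries as diamonds, by pathway. The diamonds of Adssl1, at 42.4 to 44.0 CPM, stand apart from its control circles, at 29.2 to 32.9 CPM, while most other genes mix or lie close.

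Levels between genes were compared per length, as TPM deposited by the authors. In control libraries Hprt was the most abundant of the set, at 514 ± 6.10 TPM (SD, n = 4), followed by Nme2 at 406 ± 6.44 TPM. Cmpk1 (265 ± 3.27 TPM) and Aprt (256 ± 13.6 TPM) came next and overlapped in their library values. The lowest were Ada (12.6 ± 0.512 TPM), Pfas (12.6 ± 0.814 TPM) and Dhodh (11.7 ± 0.587 TPM), which overlapped, and below them Tyms (9.62 ± 0.687 TPM). Along the steps up to IMP, control levels ran from 12.6 TPM for Pfas and 19.1 TPM for Ppat, the committed step, to 140 TPM for Paics and 105 TPM for Atic. The 4 purine salvage genes summed to 910 to 939 TPM in control and 908 to 936 TPM in serine/glycine-free libraries. The 13 de novo purine genes summed to 749 to 760 and to 711 to 739 TPM. The order changed little: without serine and glycine Hprt and Nme2 stayed ahead, Aprt (292 ± 5.19 TPM) stood above Cmpk1 (251 ± 9.97 TPM), and Pfas (10.8 ± 0.298 TPM) was last.

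**Figure D2:**
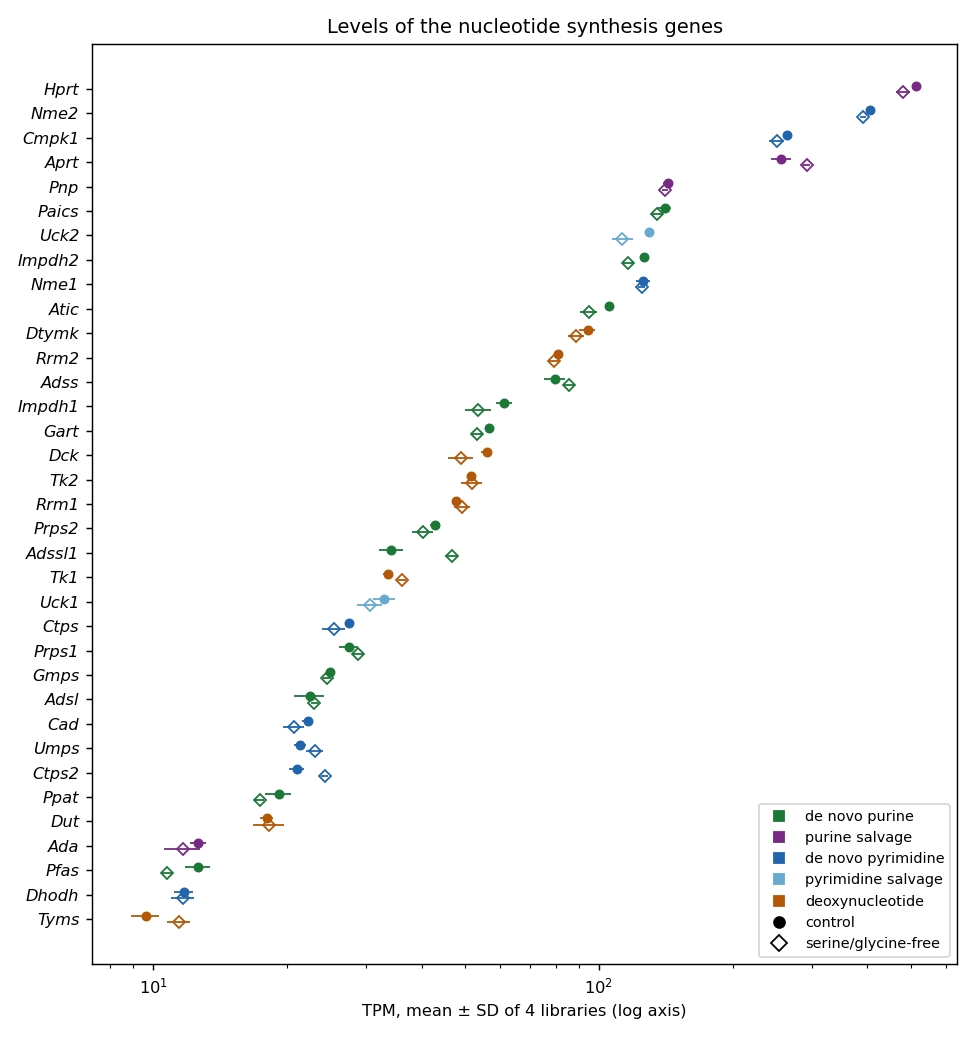
Mean TPM of each gene on a log axis, with the SD of 4 libraries as bars, filled circles for control and open diamonds for serine/glycine-free, coloured by pathway. Levels span from 9.62 TPM for Tyms to 514 TPM for Hprt in control, a range far wider than any shift between the groups.

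The stretches of DNA around the start sites of 6 members are shown, from RefSeq on GRCm38.p6, each running 250 bases before to 50 bases after the start, 5′ to 3′ on the gene's strand. Paics and Ppat are shown because they lie head to head and their exons overlap on opposite strands. Atic, Impdh2 and Tyms are shown because they passed the test in different directions and hold an E-box, and Adssl1 because it had the largest change. Capitals mark the E-box CACGTG, the site read by MYC with MAX. The windows are Paics at chr5:76951052-76951351 (plus strand), Ppat at chr5:76951529-76951828 (minus), Atic at chr1:71556906-71557205 (plus), Impdh2 at chr9:108560186-108560485 (plus), Tyms at chr5:30073576-30073875 (minus) and Adssl1 at chr12:112619797-112620096 (plus).
Paics: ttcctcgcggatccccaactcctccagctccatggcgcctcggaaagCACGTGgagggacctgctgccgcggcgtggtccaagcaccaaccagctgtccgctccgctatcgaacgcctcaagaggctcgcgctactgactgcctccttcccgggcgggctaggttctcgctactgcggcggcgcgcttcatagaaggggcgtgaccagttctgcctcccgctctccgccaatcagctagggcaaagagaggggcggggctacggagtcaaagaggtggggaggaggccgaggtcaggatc
Ppat: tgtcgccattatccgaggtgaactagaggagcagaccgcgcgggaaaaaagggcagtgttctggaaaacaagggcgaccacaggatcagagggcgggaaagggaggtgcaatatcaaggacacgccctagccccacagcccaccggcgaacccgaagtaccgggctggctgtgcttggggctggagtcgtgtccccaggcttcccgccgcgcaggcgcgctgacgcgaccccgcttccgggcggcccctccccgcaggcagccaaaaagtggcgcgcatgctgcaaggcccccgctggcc
Atic: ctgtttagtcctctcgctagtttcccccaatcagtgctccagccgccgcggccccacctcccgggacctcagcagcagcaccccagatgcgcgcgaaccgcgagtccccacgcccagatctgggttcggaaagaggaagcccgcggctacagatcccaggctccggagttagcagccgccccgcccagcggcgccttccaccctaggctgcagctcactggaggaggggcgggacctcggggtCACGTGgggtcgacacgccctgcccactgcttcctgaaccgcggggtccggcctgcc
Impdh2: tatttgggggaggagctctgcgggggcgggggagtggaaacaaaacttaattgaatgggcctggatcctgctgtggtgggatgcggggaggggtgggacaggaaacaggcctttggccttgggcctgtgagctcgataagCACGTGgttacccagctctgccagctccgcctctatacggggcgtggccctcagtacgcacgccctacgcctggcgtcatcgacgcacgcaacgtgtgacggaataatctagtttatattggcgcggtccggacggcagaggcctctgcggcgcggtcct
Tyms: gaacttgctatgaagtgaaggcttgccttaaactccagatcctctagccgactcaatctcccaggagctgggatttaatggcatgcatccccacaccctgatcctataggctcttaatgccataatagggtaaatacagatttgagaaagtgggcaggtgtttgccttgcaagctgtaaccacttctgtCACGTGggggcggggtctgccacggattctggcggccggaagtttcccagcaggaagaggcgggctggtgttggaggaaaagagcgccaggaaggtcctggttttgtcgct
Adssl1: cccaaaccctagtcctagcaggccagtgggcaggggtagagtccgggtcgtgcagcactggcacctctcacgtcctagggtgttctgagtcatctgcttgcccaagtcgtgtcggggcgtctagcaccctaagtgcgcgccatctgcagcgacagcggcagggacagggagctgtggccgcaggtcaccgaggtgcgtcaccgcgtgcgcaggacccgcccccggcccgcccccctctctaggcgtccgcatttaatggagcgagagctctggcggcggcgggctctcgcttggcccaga

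A window was found for 33 of the 35 genes, and 6 of these 33 (18.2%) held CACGTG, which reads the same on both strands, against 8.09% of 27025 genes with a window. They were Paics, Atic, Impdh2, Nme1, Tyms and Dtymk, of which Atic and Impdh2 fell, Tyms rose and the rest did not pass. The letters TGATGNAA, a composite site of ATF4, were found on either strand in 1 of 33 (3.03%), Prps1, against 4.51% of all genes. The letters TTTCGCGC or TTTGGCGC of E2F sites were found in 0 of 33, against 0.929% of all genes. The 27025 genes exceed the 17492 of the deposited table, whereas all 33 members passed the filter on low counts, so the sets are unlike. No share was taken over the tested genes alone. These matches describe the letters in the windows only.

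In de novo purine synthesis, 2 of 13 genes rose (15.4%), 4 fell (30.8%) and 7 did not pass, beside 15.9% higher and 17.3% lower of all genes tested. Pfas, whose enzyme adds an amide nitrogen in the middle of the pathway, stood at 43.3, 43.8, 46.0 and 39.7 CPM in control replicates 1 to 4 and at 36.8, 36.2, 37.5 and 40.2 CPM in serine/glycine-free replicates 1 to 4. Its groups overlapped through control replicate 4 and serine/glycine-free replicate 4 (log2 change -0.20, SE 0.048, adjusted p = 0.000875). A microRNA gene, Mir3062, shares 39 exon bases with Pfas on the same strand. Atic, which encodes the enzyme of the last formyl transfer and of the ring closure to IMP, went from 143, 142, 141 and 144 CPM to 136, 131, 132 and 126 CPM. Every serine/glycine-free library lay below every control (log2 change -0.12, SE 0.030, adjusted p = 0.0018). Its E-box lies in the window printed above.

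The other genes before IMP did not pass. Gart, which encodes the enzyme that attaches glycine and then takes up the other formyl group, stood at 102, 102, 99.1 and 98.0 CPM in control and at 99.3, 96.9, 93.6 and 96.4 CPM without serine and glycine. These values overlapped, with a log2 change of -0.055 and a 95% interval from -0.12 to 0.01. An antisense gene, Gm15964, shares 1014 exon bases with Gart, and the sources used here do not say whether counting used strand. Ppat, the committed step, stood at 40.6 ± 2.51 and 37.6 ± 1.10 CPM (SD, n = 4; log2 change -0.11, adjusted p = 0.0667). It passed when serine/glycine-free replicate 4 (adjusted p = 0.0426) or control replicate 1 (adjusted p = 0.0209) was left out, but without control replicate 4 it stood at -0.073 (adjusted p = 0.287). Paics, which encodes a bifunctional enzyme of the middle steps, had a log2 change of -0.028 with an interval from -0.09 to 0.03. Ppat and Paics share 272 exon bases on opposite strands, and RSEM gave both fractional counts in 37.5% of libraries. That is a share of libraries, and the share of reads split between Ppat and Paics is not given. Prps1 and Prps2, which encode the enzymes that make the ribose phosphate donor, had log2 changes of 0.10 (adjusted p = 0.124) and -0.065 (adjusted p = 0.181). Prps2 passed once serine/glycine-free replicate 1 was set aside (adjusted p = 0.0433), but stood at -0.042 without replicate 4 of that group (adjusted p = 0.423). Adsl, which acts both before and after IMP, stood at 0.063 (interval -0.03 to 0.16).

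At the first steps behind IMP, both genes of the step toward AMP rose and both of the step toward GMP fell. Adss and Adssl1 encode adenylosuccinate synthetases, which start the arm to AMP. Adssl1 (Entrez 11565, chromosome 12, 112620047 to 112641355) stood at 32.2, 29.4, 32.9 and 29.2 CPM in control and at 43.5, 44.0, 42.4 and 42.9 CPM without serine and glycine. All 4 serine/glycine-free libraries lay above all controls, a rise of 39.6% (log2 change 0.48, SE 0.047, adjusted p = 2.2e-11). Adss went from 101, 103, 105 and 113 CPM to 115, 117, 116 and 115 CPM, also without overlap (log2 change 0.13, SE 0.033, adjusted p = 0.0016).

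Impdh1 and Impdh2 encode inosine monophosphate dehydrogenases, the step to GMP. Impdh1 fell from 82.8, 77.7, 77.5 and 74.1 CPM to 63.1, 71.4, 73.3 and 71.8 CPM, with no overlap (log2 change -0.16, SE 0.042, adjusted p = 0.0030). Impdh2 stood at 109, 102, 102 and 107 CPM in control and at 101, 93.9, 97.2 and 104 CPM in the other group, where values overlapped (log2 change -0.089, adjusted p = 0.0417). Ndufaf3 shares 48 exon bases with Impdh2 on the opposite strand. Left out in turn, serine/glycine-free replicate 2 (adjusted p = 0.177) or 3 (0.116) ended that call of Impdh2, as did leaving out control replicate 1 (0.154) or 4 (0.0954). It was also lost with library size alone (0.0661), with the replicate block (0.0552), in DESeq2 (0.0856) and in limma-voom (0.0540), while removal of the length trend gave -0.13 (0.00075). Gmps, which encodes the enzyme that ends the GMP arm, stood at 0.0082 with an interval from -0.07 to 0.08.

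Among the purine salvage genes 1 rose, 1 fell and 2 did not pass, beside 15.9% higher and 17.3% lower of all genes tested. Aprt (Entrez 11821, chromosome 8, 122574637 to 122576907), which recovers adenine, stood at 105, 105, 101 and 93.6 CPM in control and at 116, 115, 117 and 125 CPM without serine and glycine. The groups did not overlap (log2 change 0.22, SE 0.035, adjusted p = 2.3e-06). Removal of the length trend left Aprt at 0.14 (adjusted p = 0.00013). Hprt, which recovers hypoxanthine and guanine, stood at 346, 339, 330 and 343 CPM and at 331, 320, 332 and 316 CPM. Its groups overlapped, and its call was at the edge of the threshold (log2 change -0.065, adjusted p = 0.0498). Hprt no longer passed when serine/glycine-free replicate 2 (adjusted p = 0.113) or 4 (0.121) or control replicate 1 (0.142), 2 (0.0844) or 4 (0.111) was left out. The replicate block (0.0883), library size alone (0.1001), a mean of at least 5 CPM (0.0572), DESeq2 (0.0646) and limma-voom (0.0523) also ended it. In the other direction, removal of the length trend took Hprt to -0.12 (adjusted p = 7.0e-05). Pnp, which splits purine nucleosides, stood at 219 ± 7.04 and 221 ± 4.95 CPM, with counts not whole in 100% of libraries and 718 exon bases shared with Gm49342 on the same strand. Ada, which turns adenosine into inosine, had a log2 change of -0.080 with a wide interval, from -0.24 to 0.08.

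Among the 8 genes of de novo pyrimidine synthesis and its kinases, 2 rose (25%), 0 fell and 6 did not pass (edgeR). Of all genes tested 15.9% rose and 17.3% fell. At an unadjusted p under 0.05 edgeR had 1 of the 8 lower, Cad, and DESeq2 and limma-voom also called 0 lower. Ctps2, 1 of 2 CTP synthetases, stood at 43.0, 40.2, 43.6 and 43.4 CPM in control and at 49.98, 49.7, 51.4 and 51.4 CPM without serine and glycine. The groups did not overlap (log2 change 0.25, SE 0.042, adjusted p = 5.0e-06). Its partner Ctps went from 39.1, 39.4, 38.5 and 38.5 CPM to 35.9, 38.2, 37.3 and 35.1 CPM, lower in every library but not past the threshold (log2 change -0.086, adjusted p = 0.144). Umps, the bifunctional enzyme that ends in UMP, went from 36.2 ± 1.33 to 39.9 ± 1.47 CPM without overlap (log2 change 0.14, adjusted p = 0.0147). That call was lost without control replicate 3 (adjusted p = 0.0709) and in DESeq2 (0.0542), and an antisense gene, Gm15829, shares 213 exon bases with Umps.

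Cad, which encodes the enzyme of the opening pyrimidine steps, stood at 85.5 ± 2.26 and 81.3 ± 3.02 CPM (log2 change -0.072, adjusted p = 0.115). With the length trend removed, Cad stood at -0.0088 (adjusted p = 0.870). Dhodh, the mitochondrial step, stood at 14.0 ± 0.589 and 14.2 ± 0.901 CPM, with an interval of its log2 change from -0.12 to 0.16. The kinase genes Cmpk1 (-0.047), Nme1 (0.022) and Nme2 (-0.019) did not pass. After removal of the length trend in every library, Cmpk1 (-0.072, adjusted p = 0.0193) and Nme2 (-0.094, adjusted p = 0.0026) passed as lower. Gm20390 shares 418 exon bases with Nme1 and 573 with Nme2, although their estimated counts were whole.

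Of the uridine-cytidine kinases of pyrimidine salvage, Uck2 fell and Uck1 did not pass, beside 15.9% higher and 17.3% lower of all genes tested. Uck2 stood at 118, 116, 116 and 118 CPM in control and at 104, 110, 109 and 109 CPM without serine and glycine. Its groups did not overlap (log2 change -0.11, SE 0.031, adjusted p = 0.0034). A long noncoding RNA gene, Gm2453, shares 150 exon bases with Uck2 on the opposite strand. Uck1 had a log2 change of -0.085 with an interval from -0.19 to 0.02.

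Among the 8 deoxynucleotide genes 1 rose, 1 fell and 6 did not pass, beside 15.9% higher and 17.3% lower of all genes tested. Tyms (Entrez 22171, chromosome 5, 30038546 to 30073645), which encodes thymidylate synthase, the step that takes its methyl group from folate, stood at 20.3, 20.8, 18.1 and 18.2 CPM in control. Without serine and glycine it stood at 22.7, 22.0, 23.1 and 26.1 CPM, above every control (log2 change 0.28, SE 0.062, adjusted p = 0.00033). RSEM gave Tyms fractional counts in 100% of libraries, a sign of reads split between loci, which leaves its level uncertain. Dck, the deoxycytidine kinase of salvage, went from 94.6, 88.6, 87.3 and 88.5 CPM to 81.7, 81.4, 82.8 and 74.4 CPM. Every serine/glycine-free library was below every control (log2 change -0.16, SE 0.037, adjusted p = 0.00042).

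Ribonucleotide reductase, which makes deoxynucleotides from ribonucleotides, is built of the products of Rrm1 and Rrm2. Rrm1 stood at 101, 104, 99.1 and 102 CPM and at 109, 106, 109 and 103 CPM (log2 change 0.075, adjusted p = 0.0691). Its groups overlapped. It passed once serine/glycine-free replicate 4 was set aside (adjusted p = 0.0244), with library size alone (0.0453) and with the length trend removed (0.0065). Rrm2, the subunit whose level follows the cell cycle, stood at 90.3 ± 1.69 and 90.7 ± 1.42 CPM, with an interval of its log2 change from -0.06 to 0.07. The thymidine kinase gene Tk1 went from 22.9, 23.1, 21.6 and 23.0 CPM to 24.6, 23.9, 25.5 and 25.0 CPM. Its groups did not overlap, but it missed the threshold (log2 change 0.13, adjusted p = 0.0632) and passed with library size alone (adjusted p = 0.0460). It was smaller with the length trend removed (0.077, adjusted p = 0.282), and DESeq2 gave an adjusted p of 0.177. Afmid shares 83 exon bases with Tk1 on the opposite strand. The mitochondrial Tk2 (0.046), Dut, which clears dUTP (0.042), and Dtymk, which phosphorylates thymidylate (-0.063), did not pass. Dtymk passed as lower with the length trend removed (-0.15, adjusted p = 0.0103).

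**Figure D3:**
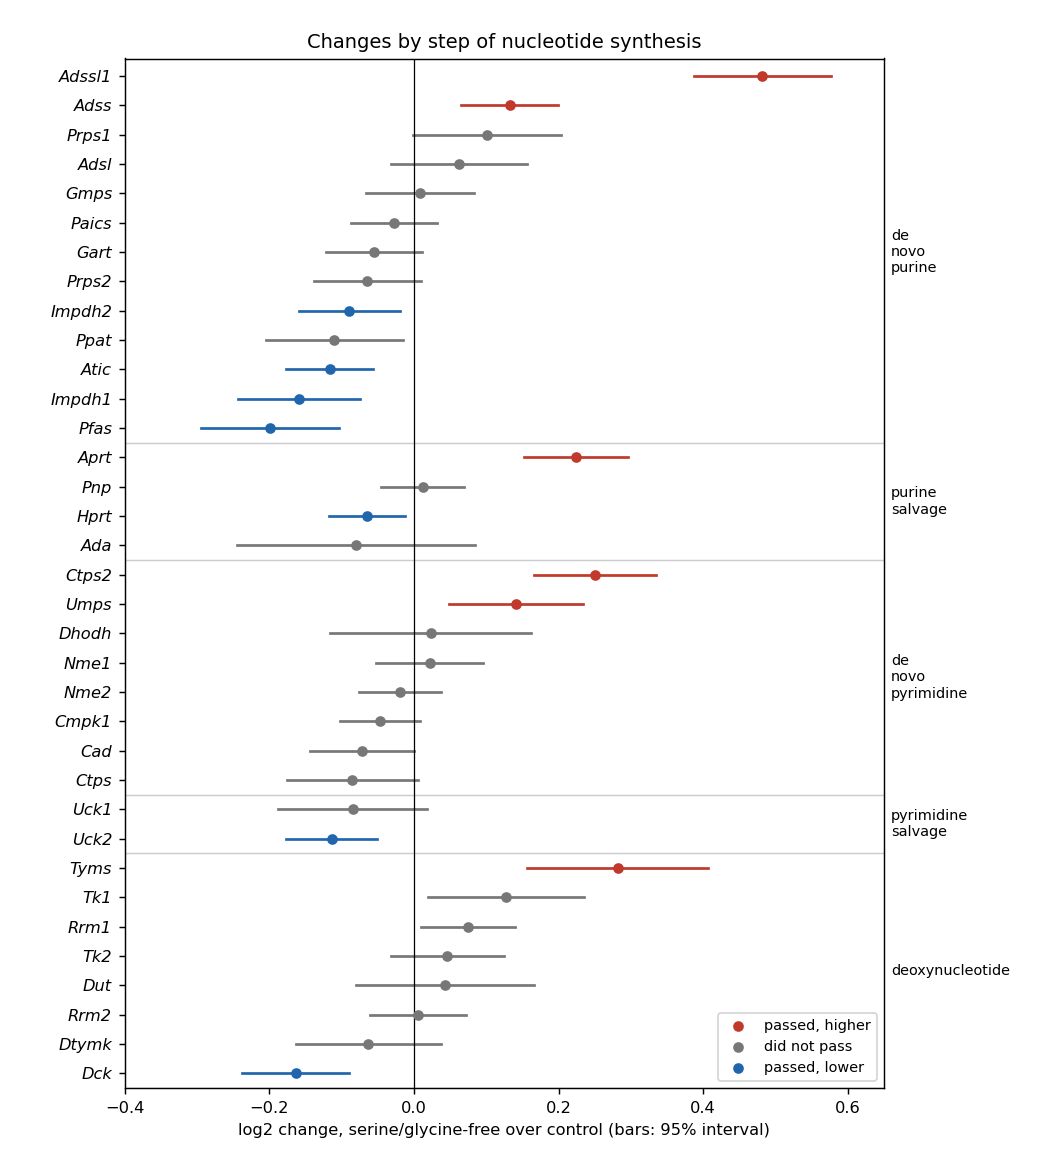
The log2 change of each gene with its 95% interval from the edgeR fit, sorted within each pathway, in red where it passed as higher, in blue where it passed as lower and in grey where it did not pass. The largest value is that of Adssl1 at 0.48 and the lowest that of Pfas at -0.20, and every pathway with more than 2 genes holds points on both sides of 0.

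Several steps have paired isozymes, and 8 pairs were compared by the log2 ratio of their counts in each library. The tests were exact two-sided permutation tests over the 8 libraries, whose smallest p is 0.0286, adjusted over the 8 pairs. The ratio of Adss to Adssl1 was 1.65, 1.81, 1.67 and 1.95 in control and 1.40, 1.41, 1.46 and 1.42 without serine and glycine, lower in 4 of 4 libraries (difference -0.35, SE 0.071, exact p = 0.0286, adjusted p = 0.114). Per length, Adss made up 69.9% ± 2.03 of the pair in control and 64.7% ± 0.394 in the other group (SD, n = 4). The ratio of Ctps to Ctps2 was -0.14, -0.03, -0.18 and -0.17 in control and -0.48, -0.38, -0.46 and -0.55 without serine and glycine, again lower in 4 of 4 libraries (difference -0.34, SE 0.050, exact p = 0.0286, adjusted p = 0.114). Ctps made up 56.7% ± 1.32 of its pair per length in control and 51.1% ± 1.34 in the other group. Neither difference passed after adjustment over the pairs. Both already stood at the smallest exact p, so with the other pairs as they were no larger separation could have passed. The adjusted p therefore does not decide whether these ratios differ.

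The other 6 ratios overlapped between groups. The ratio of Prps1 to Prps2 differed by 0.17 (SE 0.052, exact p = 0.0571, adjusted p = 0.114), or by 0.21 without control replicate 2 (exact p = 0.0286, not adjusted), and that of Rrm2 to Rrm2b, its p53-regulated counterpart, by 0.12 (SE 0.048, exact p = 0.0571, adjusted p = 0.114). Differences of 0.082 for Tk1 to Tk2 (SE 0.047, exact p = 0.143), -0.070 for Impdh1 to Impdh2 (SE 0.073, exact p = 0.314), 0.042 for Nme1 to Nme2 (SE 0.028, exact p = 0.257) and 0.030 for Uck1 to Uck2 (SE 0.053, exact p = 0.657) were not distinguished from 0, with adjusted p between 0.229 and 0.657.

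**Figure D4:**
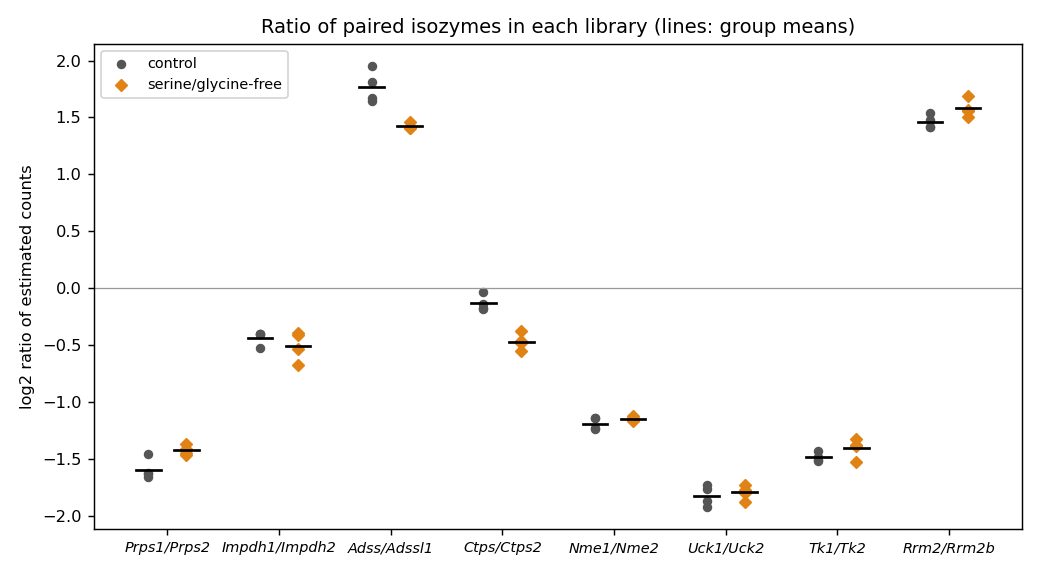
The log2 ratio of estimated counts of each isozyme pair in every library, with control as circles, serine/glycine-free as diamonds and group means as lines. For Adss to Adssl1 (1.77 and 1.42) and Ctps to Ctps2 (-0.13 and -0.47) the points of the groups do not overlap, and for the other pairs they do.

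Genes next to nucleotide synthesis were counted in the same fit. In that fit 15.9% of all genes tested rose and 17.3% fell, the shares to set beside each list below. Of 14 genes that handle folate or its formyl groups, 3 rose, 4 fell and 7 did not pass (median log2 change -0.026). Mitochondrial Mthfd2, an oxidising enzyme of one-carbon folate, went from 49.2 ± 2.14 to 60.2 ± 2.07 CPM (log2 change 0.29, adjusted p = 1.5e-07), while Mthfd1l, which releases formate, went from 34.6 ± 1.24 to 29.2 ± 1.01 CPM (-0.24, adjusted p = 8.7e-05). Ggh (0.21) and Mthfs (0.36), which act on folate chains and on formyl folate, also rose, with counts of Mthfs not whole in 100% of libraries. Aldh1l2 (-0.43, adjusted p = 0.0015), Slc19a1 (-0.26, adjusted p = 0.00044) and Shmt2 (-0.13, adjusted p = 0.0022) fell, as Mthfd1l did. Of 18 other kinase and salvage genes, 1 rose, 2 fell and 15 did not pass (median 0.053). Adk, which phosphorylates adenosine to AMP, fell without overlap from 137, 148, 146 and 146 CPM to 106, 107, 104 and 105 CPM (log2 change -0.45, SE 0.031, adjusted p = 7.8e-16), a larger change than any fall among the 35 synthesis genes. Cmpk2, a mitochondrial kinase known as an interferon-stimulated gene, fell as well (-0.19, adjusted p = 7.1e-05). Nme6 passed as higher (0.25, adjusted p = 0.0177), a call lost in DESeq2 (adjusted p = 0.0679), with the length trend removed (0.0782), without serine/glycine-free replicate 4 (0.0652) and without control replicate 4 (0.0884).

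Of 19 tested genes of nucleotide breakdown, 3 rose, 3 fell and 13 did not pass (median -0.0078), while DESeq2 called 2 and 3. Samhd1, which destroys deoxynucleoside triphosphates in non-dividing cells, fell from 712, 709, 704 and 712 CPM to 535, 532, 532 and 532 CPM (log2 change -0.41, SE 0.023, adjusted p = 3.5e-19). Xdh, the xanthine oxidoreductase that forms uric acid, rose from 271 ± 4.61 to 337 ± 11.7 CPM (0.32, adjusted p = 3.8e-13). Gmpr, listed here although it turns GMP back to IMP, also rose (0.36, adjusted p = 0.0019). Upp1 rose as well (1.07, adjusted p = 0.0195), but stood at only 0.32 and 0.69 CPM, with 4 to 18 counts per library. Gda, the guanine deaminase, fell from 21.2 ± 0.761 to 14.3 ± 0.618 CPM (-0.57, adjusted p = 3.6e-10), and Lacc1, a macrophage enzyme of purine nucleosides, fell from 288 ± 5.03 to 249 ± 2.86 CPM (-0.21, adjusted p = 5.5e-09). Of 4 nucleoside transporter genes, 0 rose and 2 fell (median -0.17), beside 15.9% and 17.3% of all genes tested. The genes that fell were Slc28a2 (-0.26, adjusted p = 2.4e-08), with counts not whole in 100% of libraries, and Slc29a2 (-0.39, adjusted p = 0.0021). At an unadjusted p under 0.05, 0 were higher in edgeR, and DESeq2 and limma-voom also called 0 higher.

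Of 16 transcriptional regulators tied to these pathways, 3 rose, 4 fell and 9 did not pass (median -0.044), while DESeq2 called 3 and 2. Mycn, a MYC family gene, fell from 247 ± 7.72 to 206 ± 6.14 CPM (log2 change -0.27, adjusted p = 2.4e-10), and its partner Max fell (-0.13, adjusted p = 0.0010). Atf4, the amino acid response factor, rose (0.20, adjusted p = 4.3e-07), as did the MYC antagonist Mxi1 (0.25, adjusted p = 0.00016). Mxd1, another MYC antagonist, fell (-0.17, adjusted p = 0.0286). The other called regulators were E2f1, higher (0.16, adjusted p = 0.0042), and Rb1, lower (-0.11, adjusted p = 0.0303). Myc, chosen after its values were seen, stood at 24.3 ± 1.95 and 24.1 ± 1.49 CPM (-0.0081, adjusted p = 0.938). Of 19 proliferation genes, 6 rose (31.6%), 0 fell and 13 did not pass in edgeR (median 0.094). Across all genes tested 15.9% rose and 17.3% fell, or 33.2% in either direction. At an unadjusted p under 0.05, 1 of the 19 was lower, DESeq2 called 4 higher and 0 lower, and limma-voom called 6 and 0. Those with the smallest p were the replication licensing factor Cdt1 (0.42), the sliding clamp Pcna (0.26), the helicase subunit Mcm6 (0.21) and the cyclin Ccna2 (0.15), the last with counts not whole in 100% of libraries. Summed over the list, proliferation genes stood at 1213 to 1226 CPM in control and at 1290.0 to 1311 CPM without serine and glycine. Much of that difference lay in Pcna (193 to 230 CPM, group means), Mcm6 (137 to 158 CPM) and Cdt1 (39.95 to 53.5 CPM). Of the 19 log2 changes, 13 were positive and 6 negative. Of the 13 genes that did not pass, Ccne2 (0.19), Gins1 (0.11), Cdk1 (0.11), Ccne1 (0.094), Cdc6 (0.029), Mcm5 (0.0074) and Mcm3 (0.00014) were positive. Mki67 (-0.00095), Mcm4 (-0.0081), Ccnb1 (-0.0085), Birc5 (-0.039), Top2a (-0.056) and Mcm2 (-0.070) were negative. The rises of the called proliferation genes stand beside that of Tyms, and their part in its rise was not tested.

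**Figure D5:**
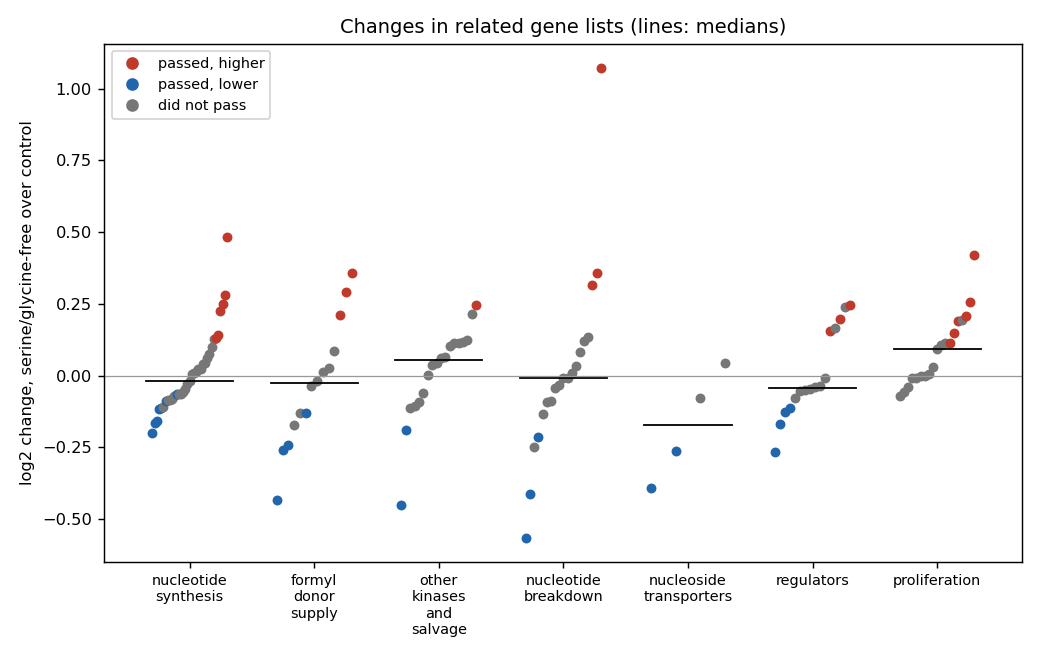
The log2 change of every tested gene of nucleotide synthesis and of 6 related lists, with the median of each as a line and the calls in colour. The lists hold genes called in both directions except the 4 transporters, with 0 called higher, and the 19 proliferation genes, with 0 called lower. Of all genes tested 15.9% were called higher and 17.3% lower.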

How the data were processed

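Per the labels' protocols, total RNA was taken with Trizol and oligo-dT beads were used for the libraries. The submitters' processing notes list RSEM, Bowtie2, BWA and the build GRCm38.p6. Versions of these were not given in the sources used. The authors deposited estimated counts, FPKM and TPM for each library, per the file headers. The deposited estimated counts were rounded and tested. FPKM, by the authors, gave only gene length, and the deposited TPM only levels between genes. Averages over a group (6 columns) were left aside.

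Genes were filtered with edgeR (minimum count 10, minimum total 15), scaled by TMM and compared, 4 libraries against 4, with edgeR 4.0.16 in R 4.3.3 (quasi-likelihood, robust, 6 residual degrees of freedom). Standard errors come from the F statistic. The steps were tested on simulated data. Isozyme ratios used a prior of 0.5 counts. All 35 genes were named. Of each related list, up to 4 genes past the threshold with the smallest adjusted p were named, and cell markers from 1 CPM. Further genes of the folate, breakdown, regulator and proliferation lists were named after their values were seen. The members and lists were chosen with earlier results of these data known. Alternatives were other normalizations (RLE, library size), filters (none, a mean of at least 5 CPM), DESeq2 1.42.0, limma-voom (limma 3.58.1), a threshold of 0.01, the replicate block, removing the trend of counts with length, and leaving out each library. A count of 0 allows a level of up to 3 counts, 0.164 to 0.171 CPM, by counting error alone. Exon overlaps were read from the GENCODE annotation supplied for GRCm38.p6.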

Additional observations from a re-analysis of the deposited data

Results flagged for a closer look

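In a screen of 144 groups of 4 values, 5 held a library farther from its neighbours than Dixon's 95% limit of 0.829, where chance gives about 1 in 20, or 7.2. Dck was lowest in serine/glycine-free replicate 4, at 74.4 CPM, beside 81.4 to 82.8 CPM in the other libraries of that group. Tk1 was lowest in control replicate 3, at 21.6 CPM, beside 22.9 to 23.1 CPM. The log2 ratio of Impdh1 to Impdh2 was lowest in control replicate 4, at -0.53, beside -0.40 in the others. Mycn was highest in control replicate 2, at 259 CPM, beside 243 to 244 CPM, and Cd68 was highest in serine/glycine-free replicate 4, at 1064 CPM, beside 1037 to 1041 CPM.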

How the results depend on the processing

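Under 18 alternatives the genes called higher numbered 5 to 8 of the 35 and those called lower 5 to 10, beside 6 and 7, and no called gene changed sign. Leaving out each library gave 5 to 7 higher and 5 to 8 lower. Removing the length trend gave 7 higher and 10 lower, kept all 13 calls, and added Cmpk1, Dtymk, Nme2 and Rrm1. Over all genes, 1855 were called higher and 2027 lower, and DESeq2 called 1335 and 1726. Library size alone moved the median of all genes to 0.016. With the replicate block 6 rose and 5 fell, with Hprt and Impdh2 lost. Deviations of same-numbered libraries correlated between -0.094 and 0.061, and 2 of 8 libraries matched their own number best, so the libraries share only a number. Removing the length trend together with the replicate block gave 7 and 10. With single libraries left out, the difference ranged from -0.39 to -0.29 for Adss to Adssl1 and from -0.37 to -0.30 for Ctps to Ctps2. Each had an exact permutation p of 0.0286, the smallest that 3 against 4 libraries allow. Groups apart in all 8 libraries stay apart with any library left out, so that p was fixed in advance and adds no support. For Prps1 to Prps2 the difference ranged from 0.15 to 0.21 (exact permutation p 0.0286 to 0.0857). As 4 pairs with the replicate block, the smallest p is 0.125. Adss to Adssl1 then differed by -0.35 and Ctps to Ctps2 by -0.34. With groups of equal size these differences are the same as without the block. A value moved by over 1.5 times or changed sign under some alternative for 2 of the 13 called genes, Aprt and Hprt, and for 17 of the 22 others. Uncalled genes near 0 changed sign: without the filter Gmps (-0.00048) and Rrm2 (-0.0026), with the length trend removed Nme1 (-0.035) and Rrm2 (-0.0100), with the block as well Nme1 (-0.034) and Rrm2 (-0.0099), and with single libraries left out Gmps (-0.0030 to 0.026), Dhodh (-0.0093 to 0.058), Pnp (-0.0071 to 0.030), Nme1 (-0.0078 to 0.041) and Rrm2 (-0.0047 to 0.018). The cause was not tested.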

Other observations

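The summed RNA of the isozyme genes for each first step after IMP was looked at after its values were seen, with no test. Adsl and Gmps, which act later on these routes and did not pass, are not in the sums. Adss and Adssl1 together stood at 133, 133, 138 and 142 CPM in control replicates 1 to 4 and at 159, 161, 159 and 157 CPM in serine/glycine-free replicates 1 to 4. Impdh1 and Impdh2 together stood at 192, 180, 180 and 181 CPM in control and at 164, 165, 171 and 176 CPM without serine and glycine. The sums did not overlap between groups in either case, higher for the adenylosuccinate synthetase genes and lower for the IMP dehydrogenase genes. Adss and Adssl1 were each already apart, so their sum could not overlap. Of all genes tested, 30.7% were likewise apart. The sums restate the values of the single genes and add no support to them.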
